A study of Danio rerio with 24 samples.

Results

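The genes described here are 6 epithelial genes of the zebrafish, the keratins krt15 (ENSDARG00000036840) and krt5 (ENSDARG00000058371), the adhesion genes col17a1b (ENSDARG00000079011) and lad1 (ENSDARG00000022698), the claudin gene cldn1 (ENSDARG00000040045) and the annexin gene ANXA1 (ENSDARG00000026726). They were taken by these Ensembl IDs and are 6 of 31087 IDs in the table. All 6 passed the filter on low values, and 21860 genes did so in all. RNA was sequenced from 24 libraries, 3 in each of 8 groups. GFP+ and GFP- cells were sorted from larvae of the line Tg(sqET20), aged 5 days, and each library came from about 30000 sorted cells out of 200 pooled larvae. The larvae were mock controls, labelled 1 h, or had received 300 uM neomycin for 30 min and recovered for 1, 3 or 5 h. All groups carry the transgene, an enhancer trap known for GFP in the supporting cells at the rim of the lateral line sense organs and in the cells strung between these organs. The labels do not say whether replicates came from separate clutches, so p-values measure the spread between these libraries.

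Keratins build the intermediate filaments of epithelial cells, and an acidic keratin such as krt15 pairs with a basic one such as krt5. Collagen XVII, the product of the COL17A1 genes, crosses the basal membrane of a keratinocyte and ties the keratin network to the basement membrane within the hemidesmosome. Ladinin, the product of LAD1, was described in mammals as an anchoring protein of the basement membrane zone. Claudins close the space between neighbouring cells in tight junctions, and annexins bind membrane phospholipids in the presence of calcium. Neomycin is an aminoglycoside that kills the hair cells of the lateral line, and the supporting cells around them then divide and replace them.

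Values are FPKM, the fragments of a gene per kilobase of transcript and per sequencing depth, which allows levels to be compared between genes. Differences are on the log2(FPKM + 1) scale and are given with their standard error from limma, a linear model with 1 mean per group fitted over all genes and libraries. A gene was called when its Benjamini-Hochberg adjusted p was under 0.05. Total read counts are not known, and relative depth read from the smallest values spanned 0.732 to 1.26 between libraries.

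The GFP+ cells of mock larvae carried markers of the lateral line, of the epidermis and of a pooled list for fibroblasts, vessels and cartilage. The pooled list does not tell these cell types apart. Its markers summed to 4459 to 8900 FPKM in GFP+ mock libraries, against 469 to 825 FPKM in GFP- mock libraries. Of the lateral line supporting cell markers 28 of 35 were higher in GFP+ than in GFP- cells and 5 were lower, and so were 18 of 24 hair cell markers (2 lower), 19 of 20 markers of the periderm, the outer epidermal layer (0 lower), 16 of 18 of the basal epidermis (1 lower) and 14 of 21 of fibroblasts, vessels and cartilage (5 lower). Of the blood markers 0 of 23 were higher and 21 lower, and of the neuron markers 0 of 19 and 18. Mostly lower too were the markers of ionocytes and mucous cells, with 2 of 17 higher and 11 lower (median -0.89). Retina markers had 1 of 18 higher and 17 lower. Over all tested genes 21.7% were called higher and 48% lower, with a median of -0.35. Skeletal muscle markers, with 4 of 16 higher and 9 lower (median -0.50), lay near these shares. The periderm list holds krt5, and the basal list krt15, cldn1 and col17a1b. With these left out, 18 of 19 periderm and 13 of 15 basal markers were higher. Without the 6 genes, the periderm markers summed to 24771 FPKM in GFP+ mock replicate 1, against 10819 and 8680 FPKM in replicates 2 and 3. At 1 h the same sum was 21555 FPKM in GFP+ replicate 1, against 5910 and 5802 FPKM in the other two. At 3 h it was 15985, 15178 and 19896 FPKM, and at 5 h 23966, 15941 and 14814 FPKM. Since replicate 1 stood apart in mock and at 1 h, changes in GFP+ cells are also given without the 4 GFP+ libraries numbered 1. Replicate 1 was also the highest at 5 h. At 3 h it did not stand apart and was left out by its number alone. This choice was made after the data were seen. The part of other cells in the results was not tested.

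**Figure D1:**
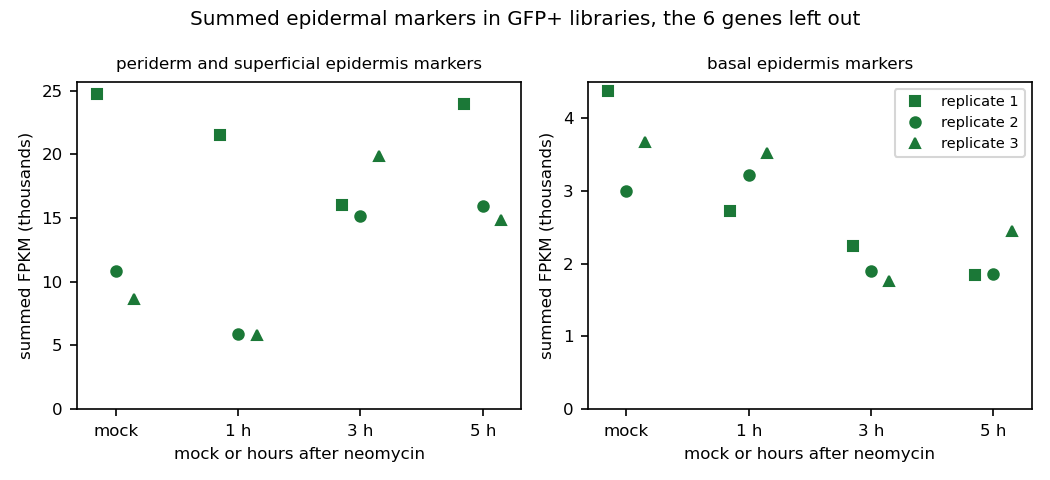
Summed FPKM (vertical axis) of periderm and of basal epidermis markers in each GFP+ library, with krt15, krt5, col17a1b and cldn1 left out of the sums and symbols marking the replicate numbers. Replicate 1 is highest for periderm markers in mock and at 1 and 5 h. The basal markers lie between 1762 and 2451 FPKM at 3 and 5 h, against 2998 to 4375 FPKM in mock.

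All 6 genes were far higher in GFP+ than in GFP- cells of mock larvae, where 21.7% of all tested genes were called higher and 48% lower. The keratins were among the most abundant transcripts of the GFP+ cells. In GFP+ mock libraries krt15 had 4364, 3026 and 4667 FPKM, against 65.1, 51.7 and 48.0 FPKM in GFP- mock libraries. Its difference was 6.15 ± 0.24 (SE; adjusted p = 1.75e-13), the rank 28 of all tested genes from the top. The values of krt5 were 3099, 2207 and 3366 FPKM in GFP+ mock libraries and 93.6, 63.0 and 77.4 FPKM in GFP- mock libraries, a difference of 5.19 ± 0.27 (adjusted p = 6.59e-12). For all 6 genes the GFP+ libraries lay above the GFP- libraries at every time, as did those of 22.3% of tested genes in mock and 23.2, 26.3 and 26.5% at 1, 3 and 5 h.

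Of the adhesion genes, col17a1b was nearly identical in the GFP+ mock libraries at 104, 105 and 105 FPKM, against 2.79, 1.74 and 0.959 FPKM in GFP- mock libraries (difference 5.28 ± 0.25, adjusted p = 1.67e-12). The least abundant of the 6 genes in GFP+ cells was lad1, with 30.1, 29.3 and 20.9 FPKM in GFP+ mock libraries and 4.34, 3.35 and 2.24 FPKM in GFP- mock libraries. Its difference of 2.7 ± 0.25 was the smallest of the 6 (adjusted p = 1.71e-08). For cldn1 the values were 231, 190.5 and 273 FPKM in GFP+ and 7.54, 5.31 and 4.61 FPKM in GFP- mock libraries, a difference of 5.10 ± 0.41 (adjusted p = 2.46e-09). ANXA1 had 1394, 1040.5 and 839.8 FPKM in GFP+ and 60.6, 56.4 and 33.5 FPKM in GFP- mock libraries, a difference of 4.43 ± 0.20 (adjusted p = 1.21e-12). Together the 6 genes made up 0.443 to 0.713% of all FPKM in GFP+ mock libraries, against 0.0119 to 0.0170% in GFP- mock libraries.

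In the mock GFP+ cells the levels ran in the order krt15, krt5, ANXA1, cldn1, col17a1b and lad1, and among neighbours in that order only the keratins overlapped between libraries. In GFP- mock cells the order was krt5, krt15, ANXA1, cldn1, lad1 and col17a1b, and the ranges overlapped for krt5 with krt15, for krt15 with ANXA1 and for lad1 with col17a1b. In GFP+ cells krt5 and krt15 changed places at 3 h, where their ranges were separate, and col17a1b and cldn1 at 5 h, where their ranges overlapped. The direction of the gap stayed the same after neomycin. All 6 genes were called higher in GFP+ cells at 1, 3 and 5 h as well, where 22.7, 23.9 and 24.1% of tested genes were called higher. The gap itself was narrower in some cases and not in others. At 3 h it was 4.65 ± 0.24 for krt15 (6.15 in mock) and 4.07 ± 0.25 for col17a1b (5.28 in mock), but 2.77 ± 0.25 for lad1 (2.7 in mock). The smallest difference after neomycin by far was that of lad1 at 1 h, 0.76 ± 0.25 (adjusted p = 0.0116). It was not called without GFP+ 1 h replicate 1 or without GFP- 1 h replicate 3, and it was 0.45 without the 4 GFP+ libraries numbered 1 (adjusted p = 0.0928).

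**Figure D2:**
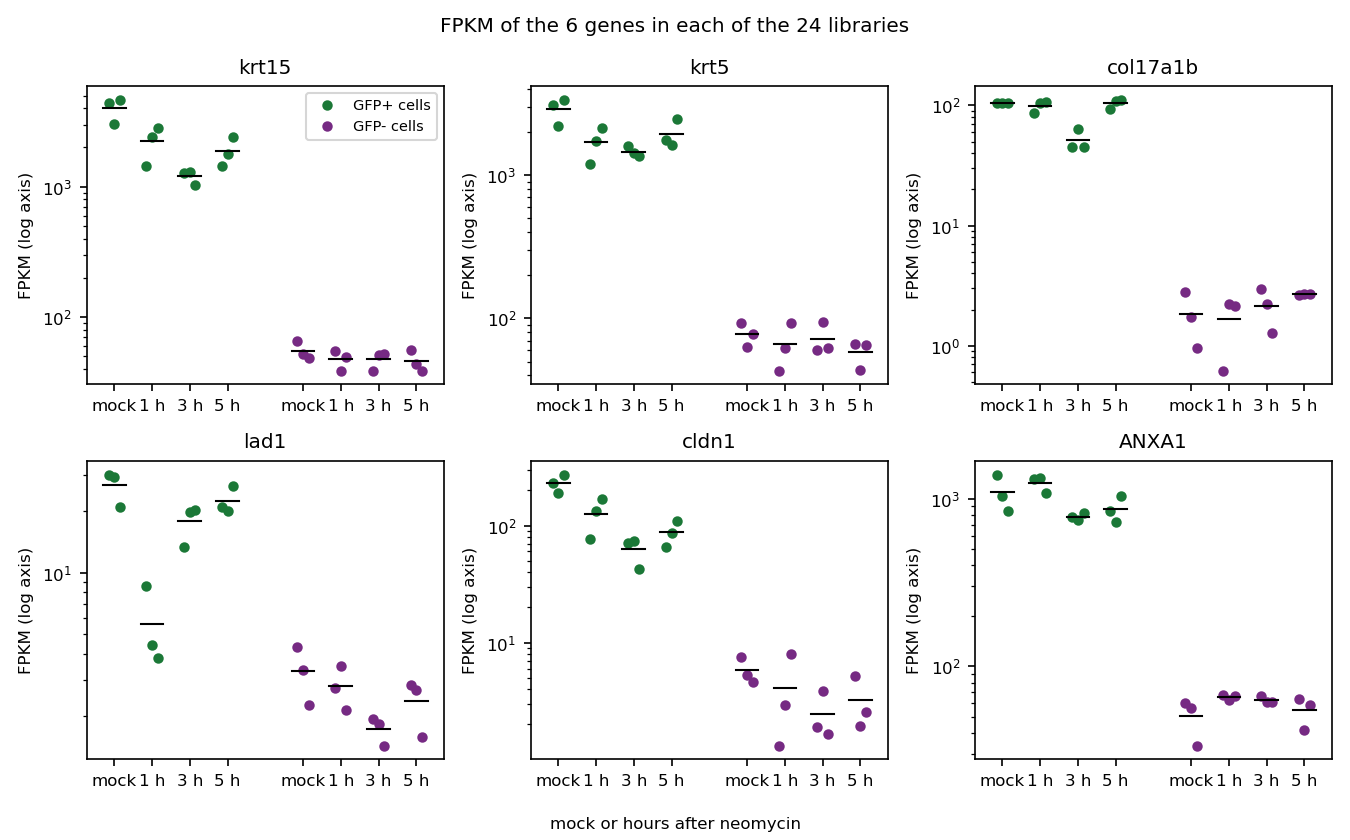
FPKM on a log axis for each of the 24 libraries (points) with the group mean (bar), in GFP+ cells (left) and GFP- cells (right) of mock larvae and at 1, 3 and 5 h after neomycin. GFP+ points lie above GFP- points for all 6 genes, most narrowly for lad1 at 1 h, where the lowest GFP+ value is 3.82 FPKM and the highest GFP- value is 3.49 FPKM.

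After neomycin both keratins fell in GFP+ cells, krt15 at 1, 3 and 5 h and krt5 at 1 and 3 h. Per library, krt15 had 1440, 2414 and 2828 FPKM at 1 h, 1277, 1303 and 1029 FPKM at 3 h and 1443, 1781 and 2402 FPKM at 5 h. Each of these 9 values lay below the lowest GFP+ mock value of 3026 FPKM. The changes from mock were -0.88 ± 0.24 at 1 h, -1.72 ± 0.24 at 3 h and -1.11 ± 0.24 at 5 h, with limma adjusted p of 0.00805, 3.27e-05 and 0.00312. The difference of 3 h minus 1 h was -0.84 ± 0.24 (adjusted p = 0.0108), a call that was lost without GFP+ 1 h replicate 3, and that of 5 h minus 3 h was 0.62 ± 0.24 and not called (adjusted p = 0.220). The 1 h change rested on GFP+ 1 h replicate 1, without which it was -0.60 with an adjusted p of 0.0602, and without all 4 GFP+ libraries numbered 1 it was -0.52 (adjusted p = 0.140).

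For krt5 the GFP+ libraries had 1194, 1735 and 2146 FPKM at 1 h, 1584, 1428 and 1356 FPKM at 3 h and 1748, 1632 and 2450 FPKM at 5 h. The values at 1 and 3 h lay below the lowest mock value of 2207 FPKM, and those at 5 h overlapped with mock. The changes from mock were -0.79 ± 0.27 at 1 h (adjusted p = 0.0319), -0.97 ± 0.27 at 3 h (adjusted p = 0.0120) and -0.57 ± 0.27 at 5 h (adjusted p = 0.163). Without the 4 GFP+ libraries numbered 1 they were -0.50 at 1 h (adjusted p = 0.322) and -0.97 at 3 h (adjusted p = 0.0570). The 1 h call was also lost without GFP+ 1 h replicate 1 or 2 or GFP+ mock replicate 1 or 3, and the 3 h call without GFP+ mock replicate 3 and with quantile normalization, where the change was -0.52 (adjusted p = 0.184).

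The balance of the 2 keratins could be read within each library, where scaling and depth cancel. In GFP+ cells the ratio of krt15 to krt5 FPKM was 1.39 ± 0.02 in mock, 1.31 ± 0.09 at 1 h, 0.826 ± 0.079 at 3 h and 0.966 ± 0.133 at 5 h (SD, n = 3 each). All ratios at 3 and 5 h lay below the lowest mock ratio of 1.37, with an exact two-sided permutation p of 0.1 at each time, the smallest that 3 against 3 libraries can give. The 1 h ratios of 1.21 to 1.39 overlapped with mock (exact permutation p = 0.3). Mock and 1 h libraries carry the date of March and those of 3 and 5 h that of April. The shift of the ratio at 3 and 5 h therefore cannot be told apart from a shift of date. The periderm marker list holds krt5 and the basal list krt15, and the part of the mix of these layers in the ratio was not tested. In GFP- cells the mean ratio was 0.713 in mock and 0.677 to 0.811 after neomycin. In the gene order of the RefSeq assembly GRCz12tu, krt15 neighbours krt93, krt94, krt98 and krt99 and krt5 neighbours krt8 and krt18a.1. Gene order does not show whether reads of these genes were shared between them, and this was not tested. The level of a single keratin is to be read with that limit.

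**Figure D3:**
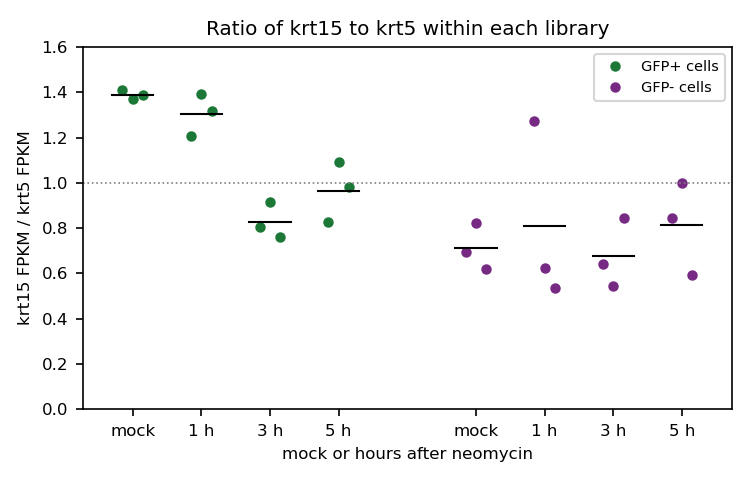
Ratio of krt15 FPKM to krt5 FPKM in each library (points) with the group mean (bar), for GFP+ cells (left) and GFP- cells (right), mock and 1, 3 and 5 h after neomycin. In GFP+ cells the mean is 1.39 in mock and 1.31 at 1 h and lies below 1 (dotted line) at 3 h (0.826) and 5 h (0.966).

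The adhesion genes moved at different times. The deepest early drop of the 6 genes was that of lad1, to 8.60, 4.42 and 3.82 FPKM in GFP+ cells at 1 h. Its values were 13.3, 19.9 and 20.2 FPKM at 3 h and 21.0, 19.9 and 26.5 FPKM at 5 h. The change from mock at 1 h was -2.12 ± 0.25 (adjusted p = 3.05e-06), the rank 89 of all tested genes from the bottom. Between 1 h and 3 h, which carry different dates, lad1 rose by 1.55 ± 0.25 (adjusted p = 9.27e-05). Against mock its change was -0.57 ± 0.25 at 3 h (adjusted p = 0.101) and -0.24 ± 0.25 at 5 h (adjusted p = 0.583). All libraries of 1 h lay below all of mock and of 3 h, those of 3 h still lay below mock, and those of 5 h overlapped with mock. In GFP- cells lad1 had 2.72, 3.49 and 2.13 FPKM at 1 h.

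The low point of col17a1b came later. GFP+ libraries had 86.4, 105 and 106 FPKM at 1 h, 44.8, 63.1 and 45.4 FPKM at 3 h and 94.0, 108 and 112 FPKM at 5 h. At 3 h each library was below each library of the other times, whereas 1 h and 5 h overlapped with mock. The change from mock was -0.09 ± 0.25 at 1 h (95% interval -0.61 to 0.44), -1.04 ± 0.25 at 3 h (adjusted p = 0.00400) and -0.01 ± 0.25 at 5 h (95% interval -0.53 to 0.52). Between 1 h and 3 h it fell by 0.96 ± 0.25 on the log2 scale (adjusted p = 0.00559). The difference of 5 h minus 3 h was 1.03 ± 0.25 (adjusted p = 0.0401) and was the 1 called among the 6 genes, where 1.07% of tested genes were called higher, and this call was lost when any of 11 single libraries was left out. Without the 4 GFP+ libraries numbered 1, the 3 h change was -0.96 (adjusted p = 0.0534). In GFP- cells col17a1b stayed between 0.619 and 2.95 FPKM in all 12 libraries.

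The tight junction gene cldn1 lay below mock in all GFP+ libraries after neomycin and was called lower at 3 and 5 h. It had 77.0, 132 and 169 FPKM at 1 h, 71.0, 74.3 and 42.8 FPKM at 3 h and 65.8, 86.4 and 110.3 FPKM at 5 h, all below the lowest mock value of 190.5 FPKM. The changes from mock were -0.93 ± 0.41 (adjusted p = 0.0966), -1.89 ± 0.41 (adjusted p = 0.00194) and -1.41 ± 0.41 (adjusted p = 0.0213). The 1 h change was called only when GFP- 1 h replicate 3 was left out, among the single libraries. At 5 h the change was -1.21 without the 4 GFP+ libraries numbered 1 (adjusted p = 0.135), and the call was also lost without GFP+ mock replicate 1 or 3 or GFP+ 5 h replicate 1 or 2. Set against col17a1b within each library, cldn1 stood at a ratio of 2.21 ± 0.39 in mock, 1.25 ± 0.35 at 1 h, 1.24 ± 0.32 at 3 h and 0.829 ± 0.146 at 5 h (SD, n = 3 each), and no ratio after neomycin reached the lowest mock ratio of 1.81. In GFP- cells, at far lower levels of both genes, this ratio was 3.52 ± 1.13 in mock, 2.37 ± 1.21 at 1 h, 1.23 ± 0.56 at 3 h and 1.19 ± 0.65 at 5 h, also with no overlap between mock and 3 or 5 h.

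ANXA1 was the 1 of the 6 genes not called against mock at any time in GFP+ cells. It had 1318, 1335 and 1086 FPKM at 1 h, 774, 745 and 825 FPKM at 3 h and 847, 723 and 1035 FPKM at 5 h. The change from mock was 0.22 ± 0.20 at 1 h (95% interval -0.21 to 0.64), -0.45 ± 0.20 at 3 h (adjusted p = 0.109) and -0.31 ± 0.20 at 5 h (adjusted p = 0.328). With median-of-ratios scaling the 3 h change was called, at -0.63 (adjusted p = 0.0401), as was that of lad1, at -0.74 (adjusted p = 0.0411), which was also called with quantile normalization. All 3 h values lay below the lowest mock value of 839.8 FPKM, while 1 h and 5 h overlapped with mock. Between 1 h and 3 h ANXA1 fell by 0.67 ± 0.20 on the log2 scale (adjusted p = 0.0151), a call that was lost without GFP+ 1 h replicate 2, and that stood at -0.62 without the 4 GFP+ libraries numbered 1 (adjusted p = 0.0766).

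Counted together in GFP+ cells, 3 of the 6 genes were called lower than mock at 1 h, 4 at 3 h and 2 at 5 h, and 0 were called higher at any of these times. Over all tested genes 19.1, 8.15 and 4.09% were called lower at these times and 13.9, 19.9 and 15.1% higher. Without the 4 GFP+ libraries numbered 1 the counts among the 6 genes called lower were 1, 2 and 1. That fit holds fewer libraries and its shares over all tested genes are not given here, so a general loss of calls is not separated. All libraries lay below those of mock for 4 of the 6 genes at 1 h, 6 at 3 h and 2 at 5 h, as for 21.5, 11.8 and 8.27% of tested genes. Of 3 h against 1 h, 3 of the 6 genes were lower and 1 higher (8.98 and 26.9% of tested genes). The contrasts with mock share the mock libraries. The median change of the 6 genes was -0.84 at 1 h, -1.01 at 3 h and -0.44 at 5 h, and that of all tested genes was -0.07, 0.11 and 0.10. Mock and 1 h libraries carry the experiment date of March and the 3 h and 5 h libraries that of April. Treatment, date and the later sampling therefore cannot be told apart within GFP+ cells at 3 and 5 h. Nor can date and time in 3 h against 1 h, as for the changes of lad1, krt15, col17a1b and ANXA1. In bulk RNA, fewer cells of a type and less RNA per cell cannot be told apart either. Other markers moved beside the 6 genes in GFP+ cells. The basal epidermis markers without the 6 genes summed to 2998 to 4375 FPKM in mock, 2724 to 3526 FPKM at 1 h, 1762 to 2250 FPKM at 3 h and 1845 to 2451 FPKM at 5 h. Gene by gene these 15 markers went both ways, with 5 called higher and 6 lower at 1 h (median 0.01), 4 and 5 at 3 h (median -0.29) and 0 and 2 at 5 h (median -0.22). Of 35 supporting cell markers 15, 10 and 6 were called lower at 1, 3 and 5 h, and 1, 2 and 2 higher. Of 24 hair cell markers 4, 7 and 5 were called lower, and 0, 1 and 1 higher. Of the 19 periderm markers without krt5, 3, 0 and 0 were called lower, and 1, 1 and 0 higher (medians -0.82, 0.48 and 0.45). The relative depth of the GFP+ 3 h libraries was 0.732 to 0.841. Blood markers summed to 692 to 1359 FPKM at 3 h, against 232 to 501 FPKM in mock, with 14 of 23 called higher. The part of these in the changes was not tested.

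**Figure D4:**
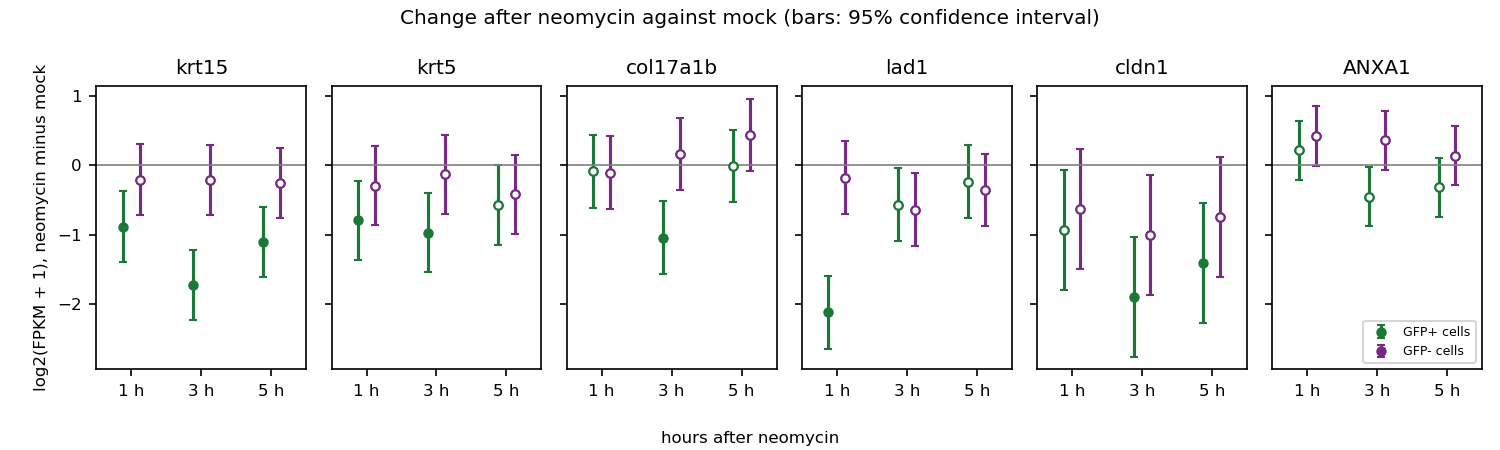
Difference of log2(FPKM + 1), neomycin minus mock, for each of the 6 genes in GFP+ cells (green) and GFP- cells (purple) at 1, 3 and 5 h. Bars are 95% confidence intervals and filled points have an adjusted p under 0.05; lad1 is lowest at 1 h (-2.12), krt15 and cldn1 at 3 h (-1.72 and -1.89), and no GFP- point is filled.

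In GFP- cells limma called 0 of the 6 genes against mock at 1, 3 or 5 h, and 0, 2 and 0 of them had an unadjusted p under 0.05. Few genes of any kind were called there, 2.7, 4.42 and 1.04% of those tested. The 2 genes at 3 h were lad1, at -0.64 ± 0.25 (adjusted p = 0.154), and cldn1, at -1.01 ± 0.41 (adjusted p = 0.176). Both were low in these cells. lad1 had 1.93, 1.81 and 1.42 FPKM at 3 h, all below the GFP- mock values, and cldn1 had 1.90, 3.87 and 1.64 FPKM, also all below mock, as for 12.6% of tested genes. Over the 9 neomycin libraries krt15 lay between 38.6 and 55.9 FPKM and krt5 between 43.0 and 93.6 FPKM, and both overlapped with mock at each time. ANXA1 had 62.7 to 67.7 FPKM at 1 h and 60.8 to 66.6 FPKM at 3 h, all above its GFP- mock values (as for 9.82 and 13.7% of tested genes), with changes of 0.42 ± 0.20 and 0.37 ± 0.20 that were not called (adjusted p = 0.311 and 0.339).

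Whether the change differed between the populations was tested directly. This also cancels a shift of date that is equal in both on the log2(FPKM + 1) scale. An equal fold change is smaller on this scale at low FPKM, so it need not cancel. In GFP- mock cells lad1 averaged 2.08 and col17a1b 1.45 on this scale, which limits how far they could fall there. At 1 h the change differed for lad1. Its change in GFP+ cells minus that in GFP- cells was -1.94 ± 0.35 (adjusted p = 0.00109), where 6.45% of tested genes were called lower. At 3 h it did so for krt15, at -1.51 ± 0.34 (adjusted p = 0.0133), and for col17a1b, at -1.21 ± 0.35 (adjusted p = 0.0487), where 0.819% were called lower. With quantile normalization that of krt15 was -1.04 and not called. That of col17a1b lost its call with a pseudocount of 0.1 and when any of 18 single libraries was left out. It was -1.13 without the 4 GFP+ libraries numbered 1 (adjusted p = 0.154). For ANXA1 at 3 h the difference was -0.82 ± 0.29 (adjusted p = 0.102), for krt5 -0.84 ± 0.39 (95% interval -1.65 to -0.03, adjusted p = 0.220) and for cldn1 -0.89 ± 0.58 (95% interval -2.11 to 0.34). With the replicate number within each time as a block, ANXA1 and krt5 were called at 3 h and krt15 was not. Which of these genes were called thus depended on whether the libraries were taken as pairs. At 5 h limma called 0 of 6 (0.233% of tested genes were called lower), and krt15 alone had an unadjusted p under 0.05, at -0.85 ± 0.34 (adjusted p = 0.20).

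The course of each gene over the 8 groups was compared with that of 16841 genes with a symbol, as the root mean square difference of group means of log2(FPKM + 1), each gene centred on its own mean. Closest to krt15 was OMD (0.108), the symbol of a small proteoglycan, which averaged 51.5 ± 37.7 FPKM in GFP+ cells at 3 h, against 159 ± 77.5 FPKM in GFP+ mock (SD, n = 3). Closest to krt5 was and1 (0.174), an actinodin of the larval fin fold, with 1181 ± 542 FPKM in GFP+ mock, and and3 was among the 3 closest to krt15 (0.361). For col17a1b the closest were ovgp1 (0.271), sox21a (0.312), a SoxB transcription factor, and CD109 (0.324). The distance includes the gap between GFP+ and GFP- cells, so a close gene need not share the course after neomycin. In GFP+ cells sox21a had 132.5 ± 34.8 FPKM in mock and 129 ± 14.8 FPKM at 3 h, without the 3 h low of col17a1b. ANXA1 ran closest to cldni (0.160), another claudin, cldn1 to si:ch1073-406l10.2 (0.347) and EGFL6 (0.366), and lad1 to ponzr10 (0.236), PTK2B (0.243) and NQO1 (0.248). NQO1, a quinone reductase, had 156 ± 29.5 FPKM in mock, 70.0 ± 35.6 FPKM at 1 h and 133 ± 19.7 FPKM at 3 h in GFP+ cells. Among the 6 genes krt5 and col17a1b were closest to each other (0.331), and lad1 was the farthest from all others (1.18 to 1.70). Its smaller gap between GFP+ and GFP- cells (2.7 in mock) enters that distance as well.

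Related genes were described by list, as counts of called genes and medians to be read beside those of all tested genes given above, and the lists include the 6 genes. Values are mean ± SD (n = 3). Of 21 keratins 20 were higher in GFP+ than in GFP- mock cells and 0 lower (median 3.15, against -0.35 over all tested genes). In GFP+ cells 1 was higher and 4 lower than mock at 1 h, 1 and 3 at 3 h, and 0 and 2 at 5 h (medians -0.79, -0.12 and 0.05). Besides krt15 the keratin that fell at all times was krt91, with 2603 ± 565 FPKM in mock, 1385 ± 278 FPKM at 1 h, 737 ± 137 FPKM at 3 h and 1019 ± 239 FPKM at 5 h, and with changes of -0.91 ± 0.32, -1.81 ± 0.32 and -1.36 ± 0.32 (adjusted p = 0.0364 at 1 h). krt1-c5 fell at 1 h to 144 ± 11.8 FPKM, against 334 ± 14.5 FPKM in mock. krt18a.1, a keratin of simple epithelia, rose to 1218 ± 156 FPKM at 1 h, against 563 ± 159 FPKM in mock (1.14 ± 0.26). Without the 4 GFP+ libraries numbered 1, 1 of 21 was higher and 10 were lower at 1 h. The counts were then 4 and 2 at 3 h and 2 and 1 at 5 h. The shares of all tested genes called in that fit are not given here. These libraries had the highest periderm marker sums in mock and at 1 and 5 h, and the part of that in the counts was not tested. In GFP- cells 0, 1 and 0 of the 21 keratins were called at 1, 3 and 5 h.

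Of 32 hemidesmosome and basement membrane genes, 5 were higher and 12 lower in GFP+ cells than mock at 1 h (median -0.35), 3 and 9 at 3 h (median -0.33) and 0 and 1 at 5 h (median -0.23). Without the 4 GFP+ libraries numbered 1 the counts of lower genes were 8, 7 and 1, again without the shares of all tested genes in that fit. The paralog col17a1a fell at 1 h, to 6.06 ± 1.97 FPKM, against 17.7 ± 12.2 FPKM in mock (-1.24 ± 0.39, adjusted p = 0.0199). Among integrin subunits itga6b rose to 269 ± 69.4 FPKM at 1 h, against 70.5 ± 17.2 FPKM in mock, while ITGA3 fell to 14.1 ± 5.98 FPKM, against 35.4 ± 2.24 FPKM in mock. The laminin chain gene LAMA5 fell to 25.8 ± 8.47 FPKM at 1 h, against 45.3 ± 12.4 FPKM in mock. At 3 h the integrin ITGB1 (ENSDARG00000053232) and fras1, a gene of the embryonic basement membrane, were lower at -1.30 ± 0.28 and -1.08 ± 0.25. Another entry with the symbol ITGB1 (ENSDARG00000071863) was higher at 3 h, at 0.47 ± 0.17 (adjusted p = 0.0411), with 41.6 ± 3.30 FPKM against 30.1 ± 6.49 FPKM in mock.

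Desmosomes join the keratin filaments of neighbouring cells. Of 16 desmosome and cornified envelope genes, 9 were higher and 3 lower than mock in GFP+ cells at 1 h (median 0.77), then 4 and 0 at 3 h (median 0.20) and 1 and 0 at 5 h (median 0.26). The desmosomal cadherin gene dsg2.1 rose to 281 ± 52.4 FPKM at 1 h, against 70.3 ± 3.01 FPKM in mock, and the plakophilin gene PKP1 to 86.1 ± 13.3 FPKM, against 34.3 ± 1.54 FPKM in mock. A gene named for the same plakophilin, pkp1a, which lies near lad1 in the GRCz12tu gene order, fell to 4.42 ± 2.07 FPKM at 1 h, against 7.37 ± 1.05 FPKM in mock (adjusted p = 0.0363). Of 14 adherens junction and epithelial surface genes 6 were higher and 1 lower at 1 h, 6 and 0 at 3 h, and 4 and 0 at 5 h (medians 0.16, 0.26 and 0.11). The adhesion gene epcam rose to 2074 ± 422 FPKM at 1 h, against 867 ± 142 FPKM in mock, and cdcp1a to 19.1 ± 0.28 FPKM, against 5.81 ± 0.29 FPKM in mock.

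Of 50 claudin and tight junction genes 15 were higher and 4 lower at 1 h (median 0.25), 8 and 3 at 3 h (median 0.18) and 3 and 2 at 5 h (median 0.04). At 3 and 5 h cldn1 was among the few lower ones, with the most negative change of the list. The claudins cldn3c and cldn7b rose at 1 h to 467 ± 155 and 489 ± 116 FPKM, against 169 ± 13.8 and 184 ± 24.3 FPKM in mock. Without the 4 GFP+ libraries numbered 1, 13 were higher and 8 lower at 1 h, and the shares of all tested genes in that fit are not given here. At 3 h the median-of-ratios scaling, which centres the libraries on most genes, turned the balance to 3 higher and 5 lower. Over all tested genes it moved the higher share of calls at 3 h from 71.0 to 48.3%. In GFP+ against GFP- mock cells 28 of the 50 were higher and 12 lower, and cldn1 had the largest difference of the list, ahead of cldni (4.04 ± 0.32).

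Of 21 annexins and S100 partners 6 were higher and 1 lower at 1 h, 5 and 3 at 3 h, and 1 and 2 at 5 h (medians 0.05, 0.03 and -0.17). Here too the median-of-ratios scaling turned the balance at 3 h, to 2 higher and 4 lower. Around the uncalled ANXA1, anxa5b rose to 160 ± 9.0 FPKM at 1 h, against 56.4 ± 7.41 FPKM in mock, and ANXA2 rose at 3 h to 481 ± 66.2 FPKM, against 247 ± 75.5 FPKM in mock. anxa5a fell at 3 h to 36.5 ± 6.87 FPKM, against 77.5 ± 17.5 FPKM in mock, and s100v2 at 1 h to 121 ± 5.33 FPKM, against 218 ± 25.6 FPKM in mock. Of 30 epidermal regulators 11 were higher and 9 lower at 1 h, 4 and 1 at 3 h, and 3 and 0 at 5 h (medians -0.07, 0.20 and 0.25). The reprogramming factor KLF4 rose by 1.53 ± 0.19 at 1 h and the homeobox gene BARX2 fell by 2.02 ± 0.23 on the log2 scale. TP63, the master regulator of basal epidermis, was not called and had differences of 0.01 at 1 h, -0.39 at 3 h and 0.01 at 5 h.

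**Figure D5:**
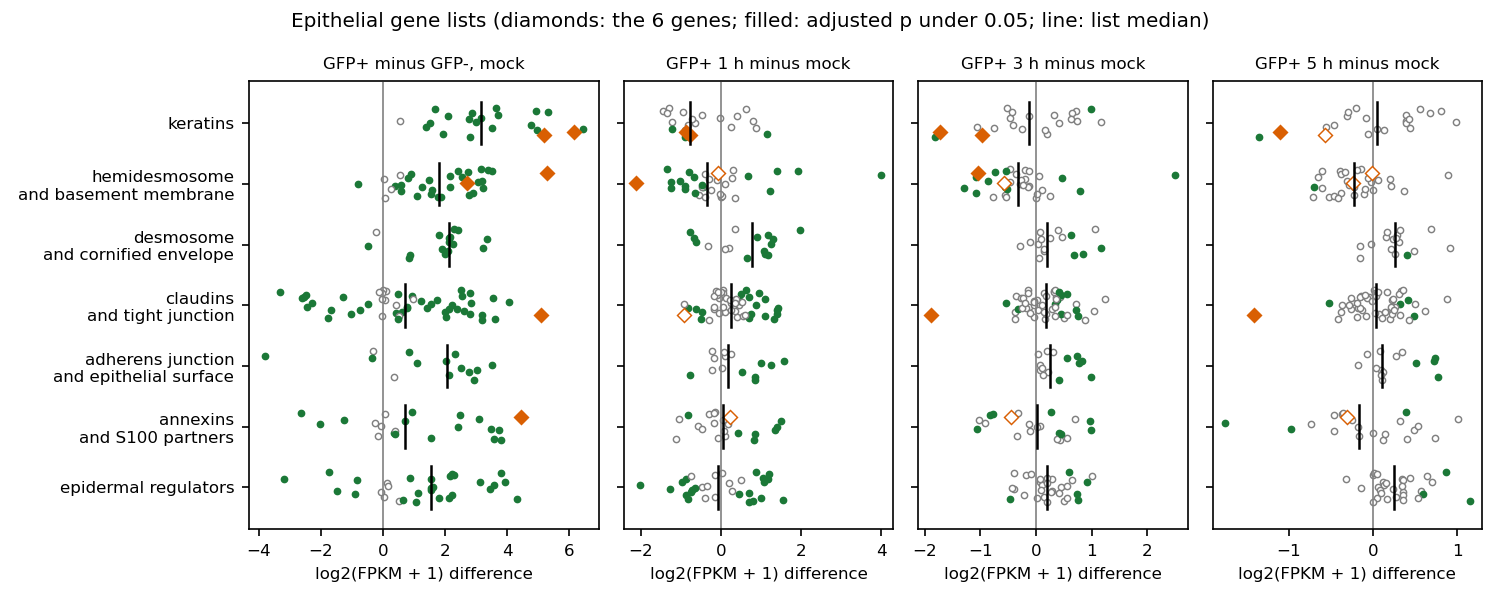
Difference of log2(FPKM + 1) for each gene of 7 lists in GFP+ against GFP- mock cells and in GFP+ cells at 1, 3 and 5 h against mock, with filled symbols for an adjusted p under 0.05, diamonds for the 6 genes and a line at each list's median. The 6 genes lie above their list's median in the comparison of GFP+ with GFP- cells and below 0 after neomycin, except ANXA1 at 1 h (0.22), while the desmosome median is 0.77 at 1 h.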

How the data were processed

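Per the submitters' processing notes, the authors used CASAVA 1.8.2, TopHat 1.4.1 and Cufflinks 1.3 with the build danRer7, and they deposited FPKM values per Ensembl gene and library. The libraries were poly-A selected TruSeq libraries, per the labels. For the annotation release and the strand setting, the answer is not given in the sources used here. The 6 genes and the gene lists were chosen with earlier results of these data known, so they support nothing independently.

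From the 31199 rows the first row of each ID was kept (112 repeats dropped), and 20499 of 31087 IDs had a symbol. A gene was tested where 3 or more of the 24 libraries reached 1 FPKM (21860 genes). Log2(FPKM + 1) values were fitted with limma 3.58.1 in R 4.3.3 (trend, 8 group means, no rescaling) and adjusted by Benjamini-Hochberg per contrast at 0.05, two-sided. The script was tested on simulated data. Depth is known only relatively, as the commonest ratio of values under 0.15 FPKM, so no counting intervals are given. Named list genes were up to 2 called changes each way, the largest, with a mean of at least 5 FPKM in the higher group, and col17a1a, LAMA5 and TP63 were added after their values were seen. A gene that the rule names is not reported here. The comparison with RefSeq gene order was also added then, with neighbours matched by symbol. Sequences were not used here. The alternatives were another pseudocount, other filters, 2 scalings, a model of the compared groups alone, a test against a minimum difference, replicate blocks and leaving out libraries.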

Additional observations from a re-analysis of the deposited data

Results flagged for a closer look

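The change after neomycin differed between GFP+ and GFP- cells, by limma's test of the difference itself, for 3 of the 6 genes. Of all tested genes 6.45% were called lower in that test at 1 h and 0.819% at 3 h. For lad1 at 1 h the change in GFP+ cells minus that in GFP- cells was -1.94 ± 0.35 (adjusted p = 0.00109), from -2.12 in GFP+ and -0.18 in GFP- cells. For krt15 at 3 h it was -1.51 ± 0.34 (adjusted p = 0.0133), from -1.72 in GFP+ and -0.21 in GFP- cells. For col17a1b at 3 h it was -1.21 ± 0.35 (adjusted p = 0.0487), from -1.04 in GFP+ and 0.17 in GFP- cells. That of col17a1b was not called in 6 of the alternative settings, nor when any of 18 single libraries was left out, and that of krt15 was not called in 3 settings, which were quantile normalization, the test against a log2 difference of 1 and the replicate block within each time. With that block krt5 and ANXA1 gained a call at 3 h. The difference of lad1 at 1 h was not called in the test against a log2 difference of 1. All 3 libraries of GFP+ cells lay below GFP+ mock in each case, as for 21.5% of tested genes at 1 h and 11.8% at 3 h. The low GFP- levels of lad1 and col17a1b limit how far these genes could fall there.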

How the results depend on the processing

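No called change of the 6 genes reversed in the alternatives run, while some uncalled ones near 0 changed sign, such as krt5 at 3 h against 1 h in GFP+ cells (-0.18, up to 0.17). The counts of genes called among the 6 changed as follows. With a pseudocount of 0.1 the count at 5 h against mock in GFP+ cells was 1 and that of the difference between populations at 3 h was 1, and that of GFP+ 5 h against 3 h was 0. Without the filter the last 2 were also 1 and 0, and quantile normalization gave 1 for the difference at 3 h and 2 for GFP+ 3 h against 1 h. Fitting only the compared groups gave 1 at 1 h and 1 at 5 h against mock, 1 for the difference at 3 h and 0 for 5 h against 3 h. That fit called 935 of all tested genes for the difference at 3 h, against 1360 in the main fit. For GFP+ 5 h against 3 h it called 1, against 389, so the 0 there is not a result about the 6 genes. Totals over all genes are not given here for the other settings. Tested against a log2 difference of 1, the counts were 1 at 1 h, 0 at 3 h and 0 at 5 h against mock, 0 for the differences at 1 and 3 h, 0 for 3 h against 1 h and 0 for 5 h against 3 h. Leaving out the 4 GFP+ libraries numbered 1 gave 1, 2 and 1 against mock at 1, 3 and 5 h, 1 for the difference at 3 h and 0 for 5 h against 3 h. In the fit of the compared groups alone krt15 and krt5 lost their calls at 1 h, krt15 at 5 h and for 3 h against 1 h, and lad1 in GFP+ against GFP- cells at 1 h. With a pseudocount of 0.1 the lost calls included cldn1 at 5 h and col17a1b for 3 h against 1 h, and with quantile normalization krt5 at 1 and 3 h and krt15 and ANXA1 for 3 h against 1 h. Without single libraries the count ranged from 1 to 4 at 1 h and 1 to 2 at 5 h against mock, from 1 to 2 for the difference at 3 h and from 0 to 1 for 5 h against 3 h. The cause was not tested. Fewer libraries also leave less residual information. Same-numbered libraries deviated together with correlations of -0.037 to 0.170, never all over 0.1 within a comparison. By that threshold the numbers were not taken as pairs in the main fit. Between GFP+ and GFP- cells, however, each same-numbered pair correlated more than other numbers did, such as 0.113 against at most -0.032 for replicate 3 at 3 h. The same held for GFP+ 1 h against mock (0.168 against at most -0.033 for replicate 1), so weak pairing is not excluded. With the replicate number as a block, 1 of the 6 genes was called in the difference at 3 h, krt15, and the call of col17a1b was lost. With the number within each time as the block, krt15 lost that call and krt5 and ANXA1 gained one. Median-of-ratios scaling moved the median of all genes in GFP+ minus GFP- mock cells from -0.35 to -0.04 and at 3 h against mock in GFP+ cells from 0.11 to 0.00, and the higher share of calls from 31.1 to 46.9% and from 71.0 to 48.3% (78.7 to 50.0% at 5 h, and 91.7 to 57.6% for the difference between populations at 5 h). With it all 6 genes were called lower at 3 h. Lower calls then made up a larger part of the calls over all genes too, and their share of tested genes is not given here. The count of 6 is therefore not a result about these genes alone. The number of all genes called at 1, 3 and 5 h against mock in GFP+ cells was 7213, 6139 and 4199, against 3819, 3788 and 1745 with only the compared groups fitted. Depth limits values near 1 FPKM, such as col17a1b and lad1 in GFP- cells.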
